A study of Equus caballus with 4 samples.

Results

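The small heat shock proteins and the cochaperone BAG3 were followed in differentiating equine satellite cells incubated with gamma-oryzanol (GO), a mixture of ferulic acid esters from rice bran oil. The group held 8 genes, *cryab*, *hspb1*, *hspb2*, *hspb3*, *hspb6*, *hspb7*, *hspb8* and *bag3*, and a probe belonged to it when its gene name in the array files, ignoring case, was one of these symbols. There were 16 such probes among 43603 noncontrol probes, for 8 of the 14591 genes named on the array. Satellite cells are the resident stem cells of skeletal muscle, and here they came from the *semitendinosus* muscle of healthy colts less than a year old and were studied on day 3 of differentiation. GO-treated cells had received 125 nM GO for 24 h, and control cells the vehicle alone (0.04 μl/ml DMSO), which the GO-treated cells also received. On each of 4 arrays, all on 1 slide, cRNA of GO-treated cells labeled with Cy5 was hybridized together with cRNA of control cells labeled with Cy3. The dyes were never swapped, so GO and dye effects cannot be told apart at any probe. The labels call the arrays biological replicates, but the methods chose the cell line with the best viability and fusion, and the sources used here do not state whether the arrays stand for different horses or for separate cultures of that line. The p-values therefore measure the spread between these 4 arrays, which may be technical.

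Small heat shock proteins share an alpha-crystallin domain, assemble into oligomers and hold unfolding proteins without using ATP until other chaperones refold them or they are degraded. In striated muscle they guard desmin, titin, actin and filamin, and several of them accumulate as myoblasts fuse into myotubes. BAG3 joins HSPB8 to the constitutive HSP70 protein HSPA8, and with the ubiquitin ligase STUB1 and synaptopodin-2 this complex sends damaged filamin to autophagy.

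A log2 ratio below 0 means less signal from GO-treated than from control cells on the same array, after the linear and lowess dye normalization of Feature Extraction. Testing was limited to 26832 probes that exceeded background clearly on all 4 arrays in at least 1 of the channels. The word changed is used where limma gave a Benjamini-Hochberg adjusted p no higher than 0.05 and the fold change reached 1.3 (0.38 on the log2 scale). All 16 probes of the group were tested. Each of them exceeded background clearly on 4 arrays in control cells, and in GO-treated cells the exception was a probe of *hspb3*, which did so on 3 arrays. Each gene was represented by its brightest probe.

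The signal of *cryab*, *hspb2* and *hspb8* was lower in GO-treated cells, and that of the other 5 genes did not pass both thresholds. Thus 3 of 8 genes changed, all of them lower, where 8.67% of the 9499 genes tested changed and 5.37% were lower. Counted by probe, 7 of 16 changed, against 8.94% of all probes tested, but 5 of the 7 were overlapping *cryab* probes on 1 stretch of its transcript. The median log2 ratio was -0.20 over the 8 genes and 0.0022 over all genes tested. The count depended on the dye normalization: without the lowess step *hspb8* alone passed and *hspb1* turned to a ratio above 0 (11.1% of all genes changed), and with quantile normalization of the channels *hspb3* and *hspb7* passed as well (27.4% of all genes changed).

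**Figure D1:**
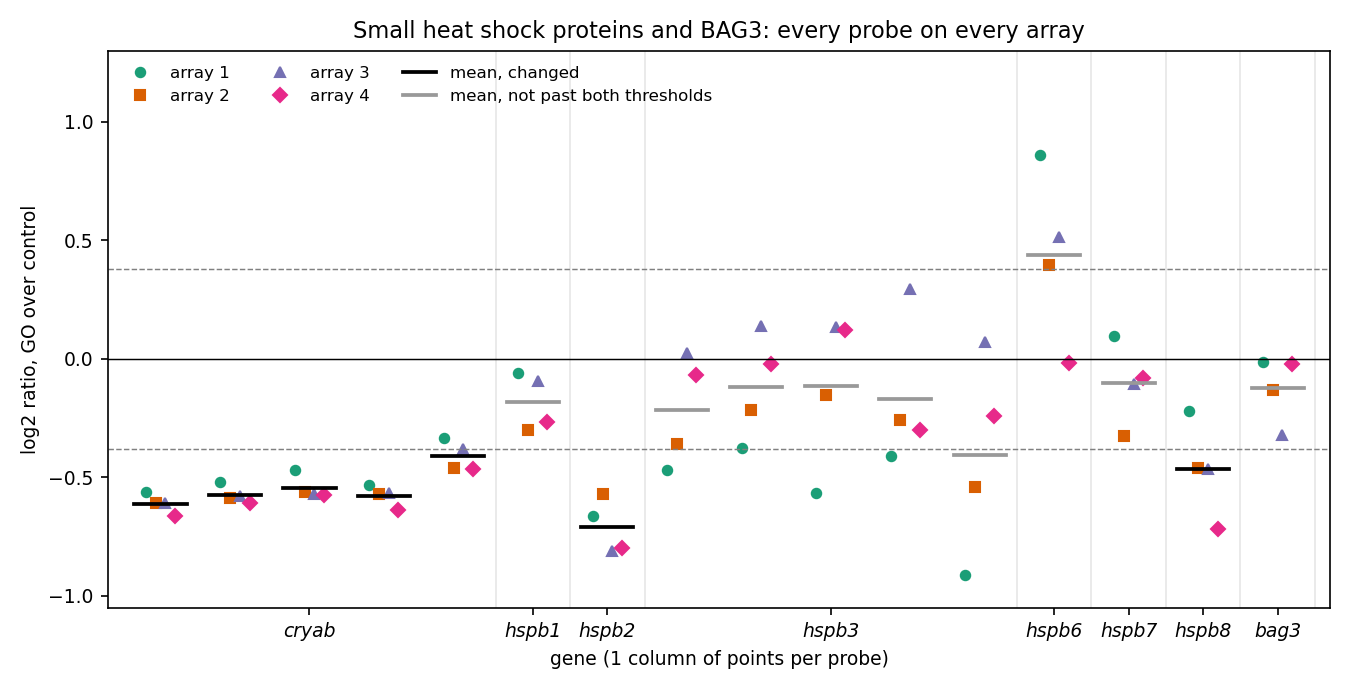
Log2 ratio of GO-treated over control signal for every probe of the 8 genes, with 1 point per array (4 arrays), a bar at the mean and dashed lines at the fold threshold. The points of the 5 *cryab* probes lie between -0.66 and -0.33, and those of the 5 *hspb3* probes between -0.91 and 0.29, with the Feature Extraction ratios (without the lowess step the *cryab* means no longer pass).

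*Cryab* encodes alphaB-crystallin, which binds desmin and titin in the sarcomere. It had 5 probes, placed by the files on the minus strand of chromosome 7 (EquCab1) in transcript ENSECAT00000012936, the brightest at chr7:17113785-17113844. The 5 probes together spanned 68 bases and had 52 bases in common, so they measure the same stretch of the transcript and are not replicates. Their first 30 bases are printed to show this overlap, with capitals for the bases that all 5 probes hold. None of the 3 reading frames was open over the whole of any of these probes.
A_69_P068366: GCATTTTTTAAAACAAGAAAGTTTCCCCAC
A_69_P068367: tGCATTTTTTAAAACAAGAAAGTTTCCCCA
A_69_P068368: ctGCATTTTTTAAAACAAGAAAGTTTCCCC
A_69_P068369: actGCATTTTTTAAAACAAGAAAGTTTCCC
A_69_P068370: ctctaactGCATTTTTTAAAACAAGAAAGT
The processed signal of the brightest probe was 45147.5, 43694, 47956 and 38352 in control cells on arrays 1 to 4, and 30574, 28677, 31424.5 and 24252 in GO-treated cells. The channels did not overlap: the highest GO signal lay below the lowest control signal. The log2 ratio was -0.56, -0.61, -0.61 and -0.66, a mean of -0.61 ± 0.04 (SD, n = 4; 95% confidence interval -0.74 to -0.48), or 1.53-fold lower in GO-treated cells, with an adjusted p of 0.00275. All 5 probes changed, with means from -0.61 to -0.41, and the smallest change was that of the probe shifted farthest upstream in the transcript, A_69_P068370 (-0.41 ± 0.06, SD, n = 4; adjusted p = 0.00768). This probe fell below the fold threshold with normexp and loess (-0.359), with quantile normalization (-0.376) and without the lowess step (-0.042). It also lost its call with the plain one-sample test (adjusted p = 0.0563) and with no replicate block (adjusted p = 0.239).

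*Hspb2* encodes a binding protein of the myotonic dystrophy kinase and, in mammals, lies head to head with *cryab*. Its single probe was placed at chr7:17119180-17119239 of EquCab1 on the plus strand, 5335 bases from the brightest *cryab* probe and on the opposite strand. The first 30 bases of this probe, the other measure of this gene pair, are shown beside those of *hspb1*, the probe of like brightness that did not pass the thresholds. No frame was open over either probe.
A_69_P068371 (*hspb2*): ttgggacgtgtcatagcctttggtttagtt
A_69_P018051 (*hspb1*): tcagtagcgaccactgaccatccccacctg
The processed signal of *hspb2* was 46391, 42313, 52471 and 41493 in control cells and 29336, 28518, 29908 and 23869 in GO-treated cells on arrays 1 to 4. As for *cryab*, the channels did not overlap. Its log2 ratios were -0.66, -0.57, -0.81 and -0.80, with a mean of -0.71 ± 0.12 (SD, n = 4), a 1.64-fold lower signal (adjusted p = 0.00288). It was the lowest mean among the 16 probes. The ratio of *cryab* lay above that of *hspb2* by 0.10 ± 0.10 (SD, n = 4), and the sign of this difference was not the same on all arrays (-0.04 to 0.20; exact sign-flip permutation test, two-sided, p = 0.25). The smallest p that this test can give with 4 arrays is 0.13, so it could not show a difference at 0.05.

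*Hspb1* encodes HSP27, which caps and stabilizes actin filaments. Its probe, on an unplaced sequence of EquCab1 (chrUn:174332287-174332346, minus strand), gave 37852, 48253, 38289 and 33906 in control cells and 36310, 39173, 35872 and 28176 in GO-treated cells. Here the channels overlapped, although each array had less signal in GO-treated cells. Log2 ratios of -0.06, -0.30, -0.09 and -0.27 gave a mean of -0.18 ± 0.12 (SD, n = 4; adjusted p = 0.108). On the same array the log2 ratio of *cryab* minus that of *hspb1* was -0.50, -0.31, -0.52 and -0.39, with a mean of -0.43 ± 0.10 (SD, n = 4). For *hspb2* minus *hspb1* the difference was -0.53 ± 0.19 (SD, n = 4) and also below 0 on all 4 arrays. The exact permutation test (two-sided) gave p = 0.13 for either difference, again the smallest possible, and 0.188 after Benjamini-Hochberg adjustment over the 3 pairs compared. With 4 arrays this test could not show an unequal change, and such a change would not show that *hspb1* itself was unchanged.

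**Figure D2:**
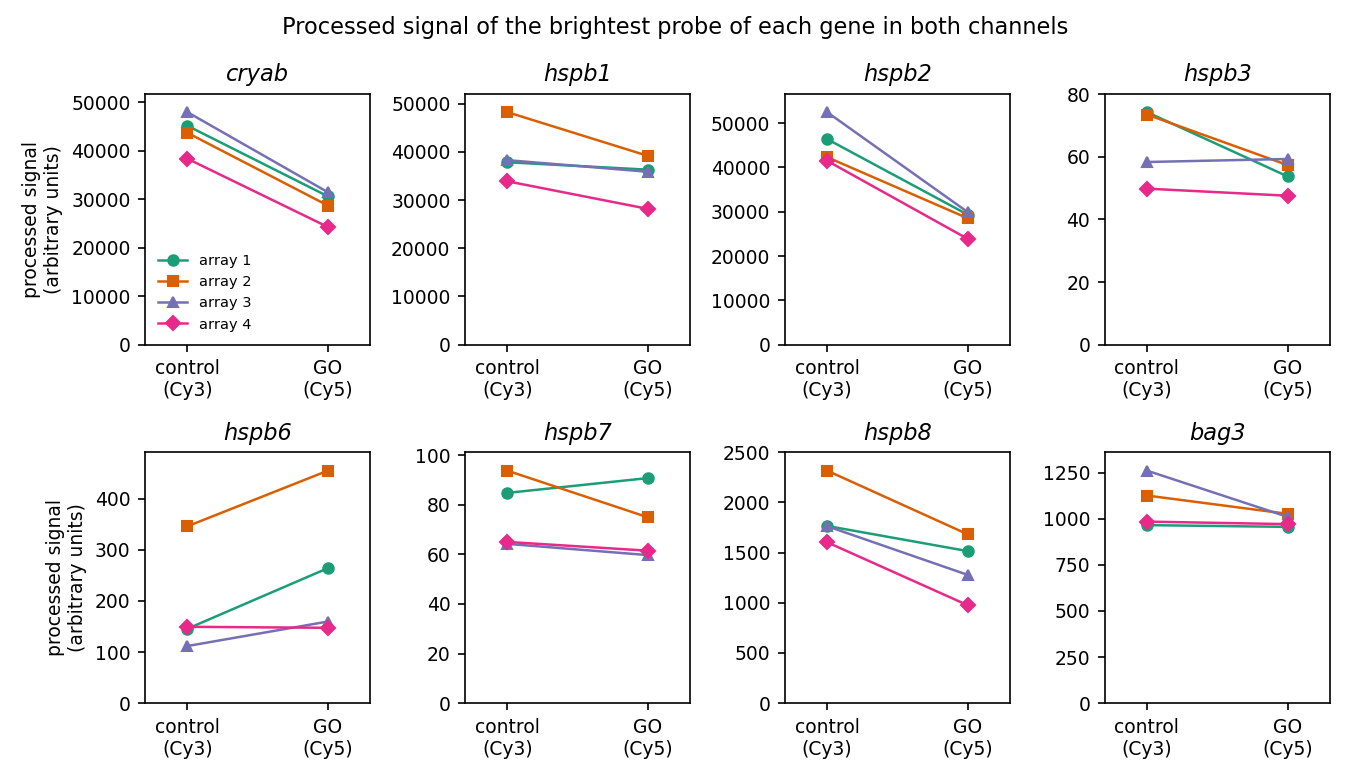
Processed signal (arbitrary units, axis from 0) of the brightest probe of each gene in control cells (Cy3) and GO-treated cells (Cy5), with 1 line per array. For *cryab* and *hspb2* every GO signal lies below every control signal, and for *hspb6* the signal is higher in GO-treated cells on 3 of 4 arrays.

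Among the members, these bright probes were the ones that the lowess step moved most. Under the 5 normalizations the dim *hspb3* ranged more widely, from -0.64 to -0.06. *Cryab*, *hspb1* and *hspb2* were among the brightest 5% of tested probes on all 4 arrays, where the ratio before normalization rose steeply toward Cy5. In that top bin the median unnormalized log2 ratio was 0.49, 0.33, -0.01 and 0.84 on arrays 1 to 4, beside 0.18, -0.04, -0.53 and 0.28 over all probes with a value. The unnormalized log2 ratio of *cryab* was -0.04, -0.26, -0.62 and 0.20, so its sign differed between arrays before any correction. Measured from the median of the top bin of its own array it was -0.54, -0.59, -0.61 and -0.64. For *hspb2* this distance was -0.63, -0.54, -0.75 and -0.75, and for *hspb1* it was -0.03, -0.21, -0.07 and -0.22. The probes of the bin differ in brightness, and whether these distances exceed the spread of the bin was not tested.

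**Figure D3:**
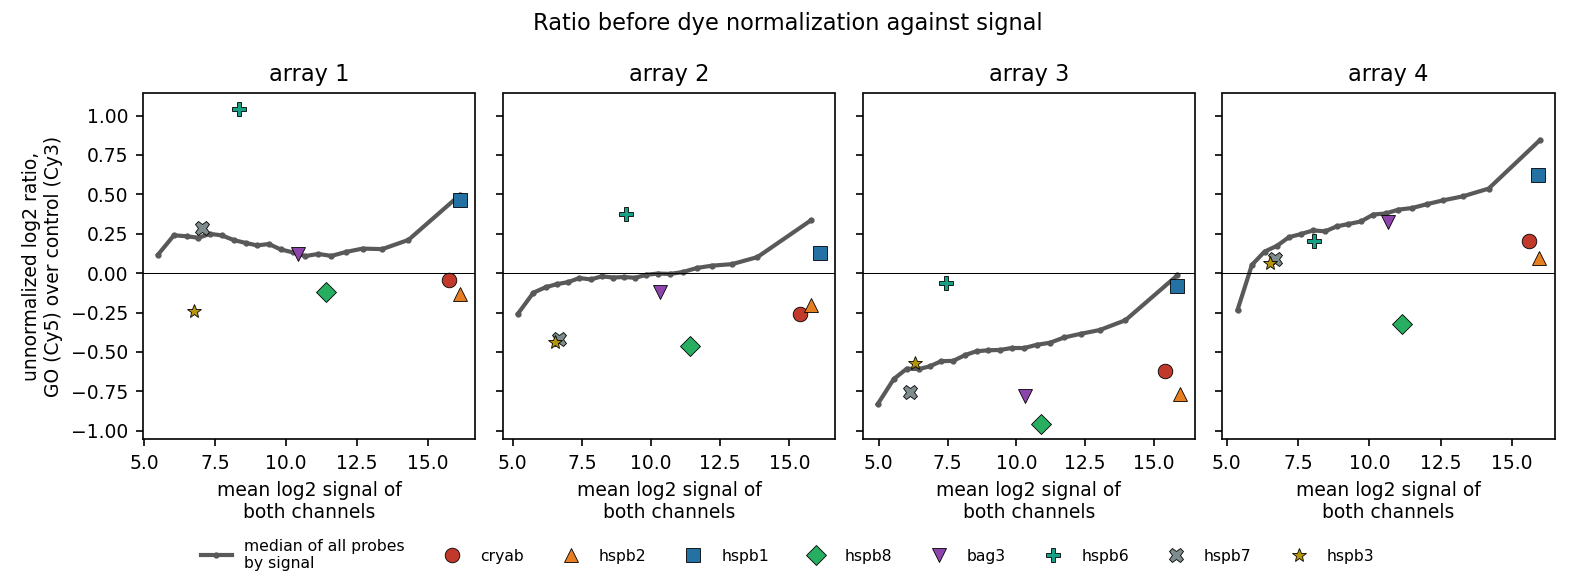
Log2 ratio before dye normalization against the mean log2 signal of both channels on each array, with the median of all tested probes in 20 bins of signal (line) and the brightest probe of each gene (symbols). The line rises at the bright end on all 4 arrays, and *cryab* and *hspb2* lie below it while *hspb1* lies close to it.

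Relative to centring on the array median, the lowess step moved the log2 ratio of *cryab* by -0.33, -0.39, -0.52 and -0.58 on arrays 1 to 4 and that of the less bright *hspb8* by 0.08, -0.04, -0.04 and -0.11. With each array only centred on its median, without lowess, the brightest 5% of probes kept a median log2 ratio of 0.44, against -0.05 with the Feature Extraction ratios. The ratio of *cryab* was then -0.15 (adjusted p = 0.147) and that of *hspb2* was -0.23 (adjusted p = 0.0528), still below 0 but past neither threshold, while *hspb1* reversed to 0.31 (adjusted p = 0.026, below the fold threshold). Over all alternatives the adjusted p ranged from 0.00121 to 0.147 for *cryab*, from 0.00107 to 0.0574 for *hspb2* and from 0.026 to 0.734 for *hspb1*. The log2 ratio of *cryab* minus that of *hspb1* lay between -0.46 and -0.36 under the 5 normalizations, and that of *hspb2* minus *hspb1* between -0.55 and -0.53. That of *cryab* minus *hspb2* ran from 0.07 to 0.19, and with quantile normalization it was above 0 on all 4 arrays (0.07 to 0.29). The dye corrections move probes of like brightness nearly alike (the lowess step moved *hspb1* by -0.34, -0.47, -0.54 and -0.61), so the narrow range of these differences is no support for them. How far each gene lay from 0 rested on the correction of bright probes.

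**Figure D4:**
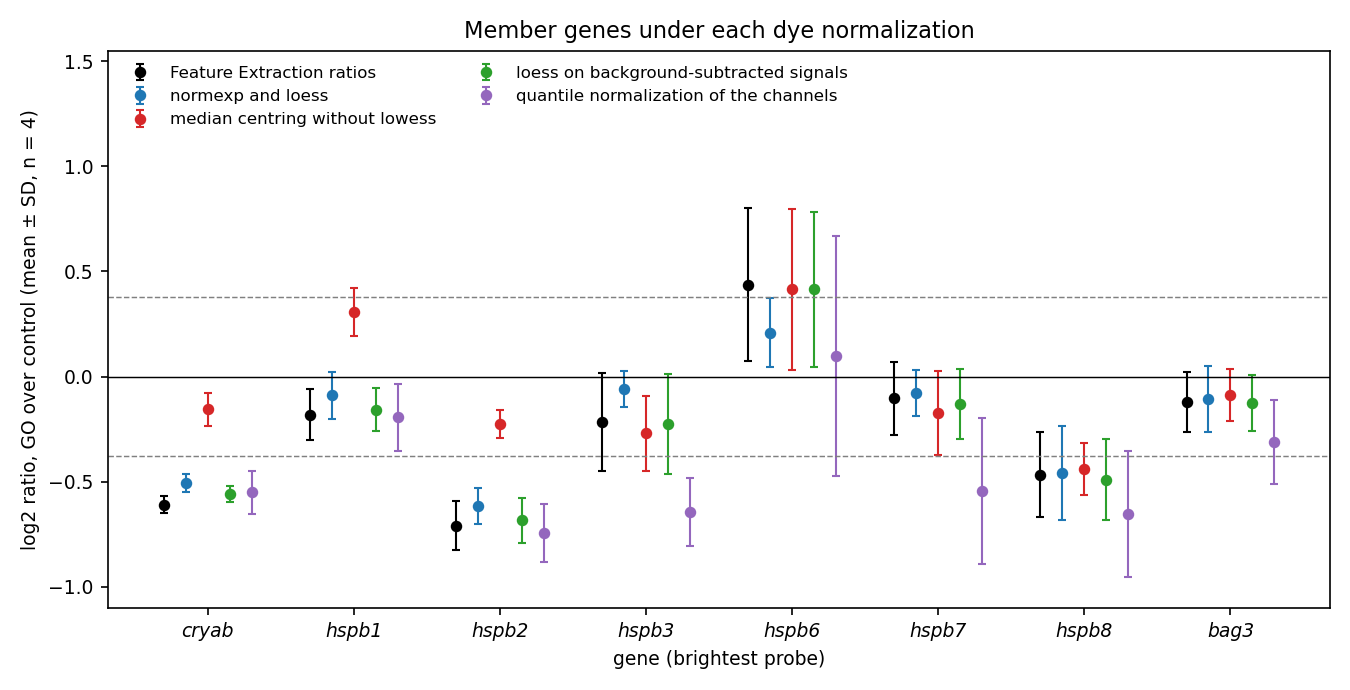
Log2 ratio of the brightest probe of each gene (mean ± SD, n = 4 arrays) under the 5 dye normalizations, with dashed lines at the fold threshold. *Hspb8* lies between -0.65 and -0.44 under all of them, *cryab* and *hspb2* approach 0 and *hspb1* crosses it without the lowess step, and *hspb3*, *hspb7* and *bag3* are lowest with quantile normalization.

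*Hspb8*, the small heat shock protein that BAG3 binds, was the changed gene that depended least on the dye correction. The 60 bases of its probe were placed over chr8:14466373-14471752 of EquCab1 (minus strand), a stretch longer than the probe itself, so that they lie in more than 1 exon, and 2 frames were open over it. The whole probe is shown because it reads across a splice junction of the gene.
A_69_P065156 (*hspb8*): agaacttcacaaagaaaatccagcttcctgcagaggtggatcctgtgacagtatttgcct
Its processed signal was 1765, 2316, 1763 and 1603 in control cells and 1514, 1682, 1277 and 975 in GO-treated cells. GO-treated cells had less signal on each array, but the highest GO signal exceeded the lowest control signal. On arrays 1 to 4 the log2 ratio was -0.22, -0.46, -0.46 and -0.72, a mean of -0.47 ± 0.20 (SD, n = 4), which was 1.38-fold lower (adjusted p = 0.0173). Array 4 gave the lowest ratio and array 1 the ratio closest to 0. Under the 5 normalizations the mean stayed between -0.65 and -0.44 and passed both thresholds. The call was lost without array 2 (adjusted p = 0.0713) and without array 3 (0.0623), with log2 ratios of -0.47 in either case. It was kept without array 1 (-0.55, adjusted p = 0.0194) and without array 4 (-0.38, adjusted p = 0.0389), and over all alternatives the adjusted p ranged from 0.00743 to 0.34.

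*Bag3* itself did not pass the thresholds. Its processed signal was 965, 1125, 1260 and 984 in control cells and 955, 1026, 1009.7 and 970 in GO-treated cells. The log2 ratio was -0.01, -0.13, -0.32 and -0.02, and its mean of -0.12 ± 0.14 (SD, n = 4; adjusted p = 0.269) was smaller than the spread between arrays. With quantile normalization the mean was -0.31 ± 0.20 (SD, n = 4; adjusted p = 0.0483), still under the fold threshold. The adjusted p ranged from 0.0483 to 0.788 over all alternatives. The probe lay at chr1:12155398-12155457 of EquCab1 on the minus strand. The difference between *hspb8* and *bag3* was not tested.

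*Hspb6* encodes HSP20, a partner of actin in muscle, and was the 1 member with a mean above 0. Its probe (chr10:6954541-6954600, minus strand, EquCab1) gave 146, 346, 112 and 149 in control cells and 264, 455, 160 and 147 in GO-treated cells. The signal was higher in GO-treated cells on arrays 1 to 3 and about equal on array 4. Its log2 ratio of 0.86, 0.39, 0.52 and -0.02 had a mean of 0.44 ± 0.36 (SD, n = 4) that passed the fold threshold but not the adjusted p (0.0665). Without array 4 the mean was 0.59 and the adjusted p 0.0207 (0.0207 to 0.779 over all alternatives), so array 4 decided the call. With normexp background correction and loess the mean was 0.21, and with quantile normalization 0.10.

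*Hspb3* encodes the partner that assembles with HSPB2 in differentiating muscle cells. Its 5 probes, on the minus strand of chromosome 21, spanned 77 bases (chr21:13575049-13575125, EquCab1) and shared 43 of them. The brightest probe and the probe with the lowest mean are printed, since they overlap and yet gave different means.
A_69_P002211: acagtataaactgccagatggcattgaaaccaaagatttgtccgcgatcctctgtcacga
A_69_P002213: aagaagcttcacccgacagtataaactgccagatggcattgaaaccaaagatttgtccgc
The brightest probe had log2 ratios of -0.47, -0.36, 0.02 and -0.07 on arrays 1 to 4, with a mean of -0.22 ± 0.23 (SD, n = 4; adjusted p = 0.154). The other gave -0.91, -0.54, 0.07 and -0.24, with a mean of -0.41 ± 0.42 (SD, n = 4; adjusted p = 0.109). On arrays 1 and 2 every one of the 5 probes was below 0, and on array 3 every one was above 0. The signals were dim, 49.8 to 74.3 in control cells and 47.6 to 59.3 in GO-treated cells for the brightest probe. The 5 means lay between -0.41 and -0.11 and none passed both thresholds. Quantile normalization, which put the median of all probes at -0.25, gave the brightest probe -0.64 (adjusted p = 0.008, and 0.008 to 0.673 over all alternatives), and all 5 probes changed. Without the lowess step A_69_P002213 alone of the 5 changed (-0.51, adjusted p = 0.0283).

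*Hspb7*, the cardiovascular small heat shock protein, binds filamin C. Its probe (chr2:35083029-35083088, plus strand, EquCab1) was also dim, with 84.8, 93.8, 64.2 and 65.0 in control cells and 90.7, 74.9, 59.7 and 61.5 in GO-treated cells. The log2 ratio was 0.10, -0.32, -0.11 and -0.08, a mean of -0.10 ± 0.17 (SD, n = 4; adjusted p = 0.393), which did not exceed the spread between arrays. With quantile normalization it was -0.54 (adjusted p = 0.0314, and 0.0314 to 0.919 over all alternatives). As with the brightest probe of *hspb3*, quantile normalization was the only one of the 15 alternatives with a call.

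Other chaperones and partners were taken from 7 lists. Of 41 genes listed, 31 were tested and 9 changed, all 9 lower in GO-treated cells, where 8.67% of all genes changed. Their median log2 ratio was -0.27. Without the lowess step *hsph1*, *myh8* and *flnc* were lower and 2 genes higher, the latter being *vim* (0.63) and *flna* (0.39). Under all 5 normalizations *hsph1* and *myh8* passed. Among the partners of BAG3, all 6 were tested and *hspa8*, the constitutive HSP70 that BAG3 binds, was lower, with log2 ratios of -0.56, -0.22, -0.62 and -0.28 on arrays 1 to 4 and a mean of -0.42 ± 0.20 (SD, n = 4; adjusted p = 0.0231). Only 1 of its 6 probes changed, their means ran from -0.42 to -0.20, and without the lowess step the ratio of its brightest probe was 0.07. The ubiquitin ligase gene *stub1* had a log2 ratio of 0.07, *synpo2* (synaptopodin-2) one of -0.27 and *sqstm1*, an autophagy receptor gene, one of -0.31, and none of these passed both thresholds. The filamin C gene *flnc* had -0.44 (adjusted p = 0.0613) and did not pass, but it did with normexp and loess (-0.43), without the lowess step (-0.40), with quantile normalization (-0.62), with array weights and without array 1, the array on which its ratio was 0.01. Without array 1 the mean of *hspa8* was -0.37 (adjusted p = 0.062) and without array 3 it was -0.35 (adjusted p = 0.0825). Of the genes of this complex, *hspb8* and *hspa8* were thus lower, and each lost its call without either of 2 arrays. *Hspa8* lost it also with normexp and loess (-0.32, under the fold threshold), with array weights and with the mean of its probes, where *hspb8* kept it.

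Of the heat-inducible chaperones 4 of 6 were tested and *hsph1* and *hsp90aa1* were lower. The log2 ratio of *hsph1*, an HSP110 that exchanges nucleotide on HSP70, was -0.61, -0.46, -0.65 and -0.39, a mean of -0.53 ± 0.12 (SD, n = 4; adjusted p = 0.00605). For *hsp90aa1*, the inducible HSP90, it was -0.35, -0.41, -0.60 and -0.43, a mean of -0.45 ± 0.11 (SD, n = 4; adjusted p = 0.00821), which fell below the fold threshold without the lowess step (-0.31). *Hspa1a*, the classical heat-inducible HSP70, had -0.05 and the mitochondrial *hspd1* -0.11, and neither passed (*hspd1* was 0.14 without the lowess step). Of the heat shock factors *hsf2* was tested, and its log2 ratio of -0.31 (adjusted p = 0.0192) was under the fold threshold. In the BAG family *bag1* had -0.22 and *bag4* -0.11, neither past the fold threshold, and the median of the 5 other BAG genes was -0.11. Among further small heat shock proteins *hspb11* was tested (0.09, adjusted p = 0.464), and *cryaa*, *hspb9* and *odf1* did not meet the filter on dim probes.

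Of 3 tested cytoskeletal partners 1 changed. Desmin (*des*), the intermediate filament that alphaB-crystallin guards, had log2 ratios of -0.26, -0.66, -0.81 and -0.71 and a mean of -0.61 ± 0.24 (SD, n = 4; adjusted p = 0.0113), while *vim* and *flna* had -0.10 and 0.20 and did not pass. Without array 2 the adjusted p of *des* was 0.0545 at a log2 ratio of -0.59. Of 12 muscle differentiation genes 11 were tested and 5 were lower, where 5.37% of all genes tested were lower. The median over the list was -0.36. The embryonic myosin gene *myh3* had -0.83 ± 0.19 (SD, n = 4; adjusted p = 0.00338) and the perinatal *myh8* had -1.08 ± 0.43 (SD, n = 4; adjusted p = 0.00824). These were the lowest means of the list, and each was below 0 on 4 of 4 arrays. The other changed genes were *acta1*, skeletal actin (-0.64), *tnnc1*, slow troponin C (-0.61), and the transcription factor gene *myog* (-0.40), whose adjusted p was 0.0649 without array 2 (-0.38) and 0.0544 without array 3 (-0.36). Only 1 of the 2 probes of *myog* changed, and its call was lost also with normexp and loess (-0.35) and with the mean of its probes. *Myod1* had -0.36, *myf6* -0.13 and *mef2c* -0.34, none of them past both thresholds, although 1 of the 2 probes of *mef2c* changed (-0.63) and the gene passed with the mean of its probes. *Myod1* passed with quantile normalization (-0.72), with array weights and without array 1. Its other probe had a mean of -0.06 with the Feature Extraction ratios. With quantile normalization *mef2c*, *myf6*, *hsf2*, *synpo2* and *sqstm1* passed as well. The list's median stayed below 0 under the 5 normalizations. Without the lowess step it was -0.22 and 1 of the 11 genes changed, *myh8*, where 11.1% of all genes changed. In that setting *myh3* had -0.15 (adjusted p = 0.2), *acta1* -0.08 (adjusted p = 0.492) and *tnnc1* -0.22 (adjusted p = 0.0561), and *des* (-0.33) and *myog* (-0.36) fell below the fold threshold.

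**Figure D5:**
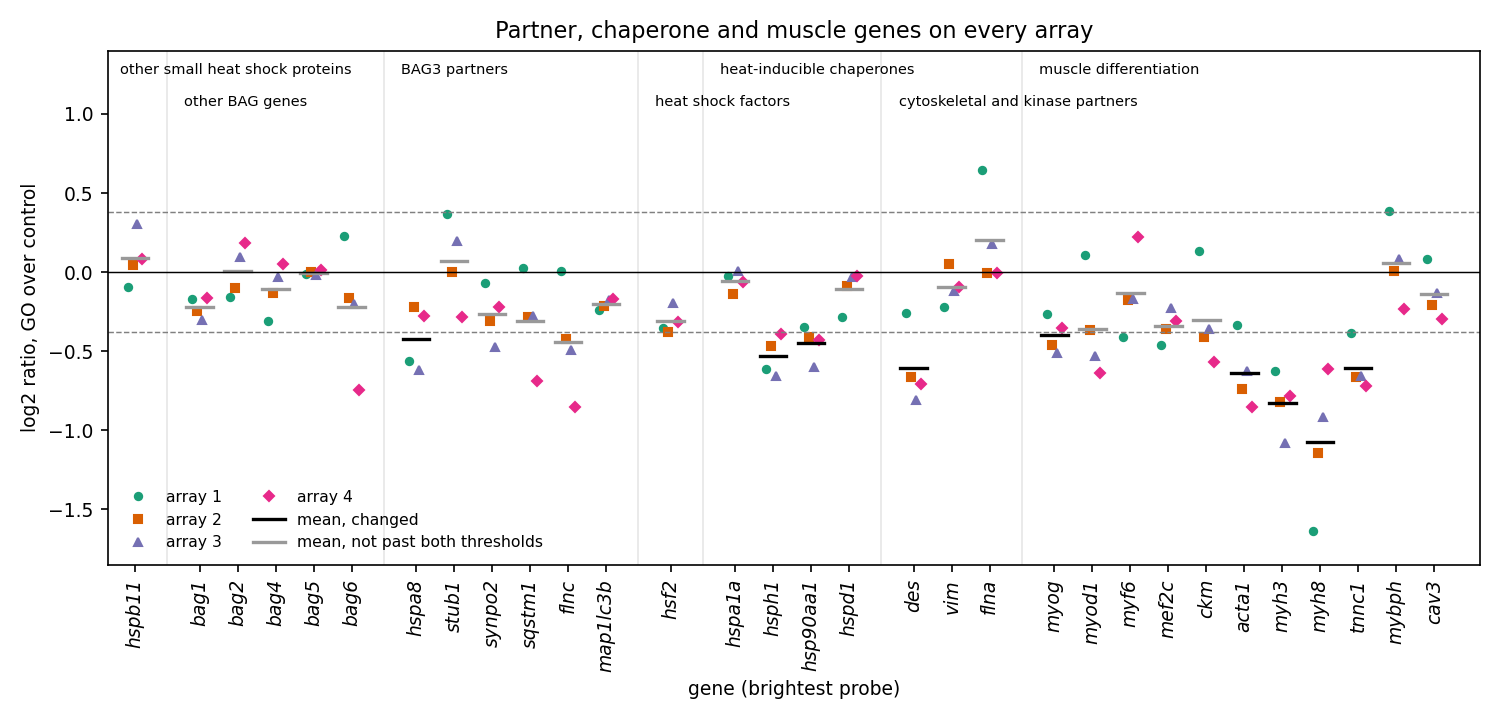
Log2 ratio of the brightest probe of the 31 tested partner, chaperone and muscle genes, with 1 point per array, a bar at the mean (black where the gene changed) and dashed lines at the fold threshold. The 9 changed genes are all below 0 with the Feature Extraction ratios, and without the lowess step *hspa8* is above 0 and *vim* and *flna* pass as higher.

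Markers of the cultured cells are given beside these genes. Over all genes tested, 5.37% were lower and 3.31% higher. Of 6 myogenic markers 4 were on the array by name, all well above background in control cells on 4 arrays, and *myf5* (-0.93 ± 0.04, SD, n = 4; adjusted p = 0.00102), *myog* and *des* were lower (the last 2 are counted above as well), while *pax7* and *cdh15* had no probe under these names. The summed signal of the 4 was 20242, 30660, 28055 and 23018 in control cells and 16777, 19520, 16134 and 14230 in GO-treated cells, with *des* the brightest. Of 5 markers of fibroblasts and fibro-adipogenic cells 4 were tested, and the receptor gene *pdgfra* was higher (0.87 ± 0.48, SD, n = 4; adjusted p = 0.0199), from a dim signal of 21.8 to 46.4 in control cells (0.87 and an adjusted p of 0.0741 without array 2). *Dcn*, the brightest of this list, had 0.04, *thy1* 0.08 and *fap* 0.24, none past both thresholds, but 1 of the 2 *dcn* probes changed (0.42). The calls of this list depended on the normalization. Without the lowess step *dcn* passed as higher (0.74, adjusted p = 0.00168), and *pdgfra* did not pass with normexp and loess (0.37, under the fold threshold) or with quantile normalization (0.40, adjusted p = 0.051). Their summed signal was 71855, 66589, 75742 and 58689 in control cells and 71533, 70708, 77026 and 64250 in GO-treated cells. The part of such shifts in the ratios of *cryab*, *hspb2* and *hspb8* was not tested, and fewer myogenic cells and less RNA per cell cannot be told apart in these cultures. Of the other markers, those of adipocytes (*adipoq*, *fabp4*) and endothelium (*pecam1*, *cdh5*, *vwf*) on the array were not well above background on any array, and *myh11* of smooth muscle (0.21) and *cd14* of leukocytes (0.11) were tested and did not pass. *Cd14* was bright (4164 to 4946 in control cells), but *cd3e* of leukocytes and *rgs5* of pericytes were not well above background on any array.

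The genes whose 4 ratios lay closest to those of *cryab* were sought among the other 9491 tested genes by root mean square difference. They were *il1rap*, an interleukin receptor subunit gene (0.0533), *asb5*, a muscle ubiquitin ligase adaptor gene (0.0543), *tbc1d8* (0.0562) and *herpud1*, a gene of the endoplasmic reticulum stress response (0.0563). The log2 ratio of *asb5* was -0.60, -0.66, -0.61 and -0.75 and that of *herpud1* -0.62, -0.57, -0.70 and -0.67, near those of *cryab* by the choice of these genes. *Il1rap* had a mean of -0.57 and *tbc1d8* one of -0.65. The signal of *il1rap* was dim, 29.0 to 42.7 in control cells and 19.0 to 29.9 in GO-treated cells. In GO-treated cells it exceeded background clearly on 3 arrays. The neighbor *hspb2* was farther, at 0.133, and 57 genes were closer to *cryab* than *hspb2* was. Which genes were closest depended on the dye normalization. Without the lowess step none of the 4 named genes was closer than *hspb2* (0.104), with *herpud1* at 0.105 and *il1rap* at 0.575, although 323 others were. Of the 4, 2 were closer than *hspb2* with normexp and loess and 1 with quantile normalization, and 57 to 1297 genes in all were closer under the 5 normalizations.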

How the data were processed

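Arrays were processed by the authors with Feature Extraction (version 10.10.1.1 in the headers). The deposited intensity columns hold mean signals, median local backgrounds, the signals after background subtraction, and the processed signals, which were detrended and corrected for dye (linear, then lowess). The deposited log10 ratios are those of processed Cy5 over Cy3, and 180880 of 180880 values of the series table equaled them exactly (tolerance 0). Ratios were converted to log2, 1417 control spots and outlier spots were left out, and spots of 1 probe were averaged. The 4 log2 ratios of 26832 probes were tested against 0 with limma (version 3.58.1; lmFit on an intercept, eBayes; two-sided) in R (version 4.3.3), with Benjamini-Hochberg adjustment over these probes. Thresholds were those of the methods, which name no test. The test was tried on simulated data. Other tools were data.table (version 1.17.8) and matplotlib (version 3.10.9).

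Symbols were those of the files for 24962 probes and, for 1684 and 431 others, those given by gene number or accession in the RefSeq table of a later horse assembly. The EquCab1 genome was not used here. Named were all members, the changed genes and up to 3 other genes of each list (other small heat shock proteins, other BAG genes, BAG3 partners, heat shock factors, heat-inducible chaperones, cytoskeletal and kinase partners, muscle differentiation, cell type markers) and the 4 genes closest to *cryab*. *Flnc* and further list genes named for absence were added after their values were seen. Members and lists were chosen with earlier results of these data known. The number of arrays limits the precision.

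The ratio pairs the channels hybridized to the same array. The deviations of these channels from their group means had a correlation of 0.60, 0.86, 0.73 and 0.48 on arrays 1 to 4, and those of channels on different arrays one of -0.54 to 0.24. Alternatives were normexp background correction (offset 50) with loess, median centring, loess or quantile normalization of background-subtracted signals, other filters on dim probes, outlier spots kept, a plain one-sample test, no replicate block, array weights, each array left out, and the mean of a gene's probes. Differences between members of like brightness, and the genes closest to *cryab* under each normalization, were added after seeing the data.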

Additional observations from a re-analysis of the deposited data

Results flagged for a closer look

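The *cryab* probe A_69_P068369 had log2 ratios of -0.47, -0.56, -0.57 and -0.57 on arrays 1 to 4. The gap of array 1 to the nearest other array was 0.885 of the whole range, above Dixon's 95% critical value for 4 arrays. Such a gap arises by chance in about 1 of 20 groups, and 16 probes, some of them overlapping, were examined. The other 4 *cryab* probes did not exceed that value.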

How the results depend on the processing

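The main counts were 3 member genes, 7 member probes and 9 partner genes. Without the lowess step they were 1, 2 and 5 (11.1% of all genes changed), and with quantile normalization 5, 12 and 16 (27.4%). The plain one-sample test gave 1, 4 and 0 (0.39% of all genes). With no replicate block, the channels being treated as separate samples, 2 member probes and 2 partner genes passed (106 of 9499 genes), and without a filter on dim probes 4 partner genes did (1.94% of all genes). The causes were not tested. Leaving out each array in turn gave 2 to 4 member genes, 6 to 8 member probes and 7 to 11 partner genes (5.3 to 8.53% of all genes).

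Of 15 alternatives, 14 kept *cryab* and 13 kept *hspb2* on the same side of the thresholds, and 10 kept *hspb8*. *Hspb8* had an adjusted p of 0.0898 without a filter, 0.118 with the plain test and 0.34 with no replicate block, and *hspb2* 0.0574 with the plain test. The reversed result was *hspb1* without lowess, 0.31. *Bag3* stayed on its side in all 15. The probes of *hspb3* and *hspb7* were the dimmest of the members, and whether signal over background limits their ratios was not tested. The median ratio of spot signal to local background per array was 2.85 to 4.37 for GO and 3.66 to 4.22 for control. These medians describe whole arrays and not the probes of these genes.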
